A study of Mus musculus with 6 samples.

Results

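Cell cycle genes were examined in the cerebral cortex of control and Qk knockout mice at postnatal day 7. Qk encodes the RNA-binding protein quaking. The 48 genes were taken by symbol from all 35857 genes listed for each library, and fall into 14 genes of DNA replication, 22 genes of the G2 phase and mitosis, 9 cyclins, cyclin-dependent kinases and E2F1 that act in G1 or at entry into S phase, and 3 inhibitors of cyclin-dependent kinases. Each symbol was found once. The cortex came from C57BL/6 mice in 2 groups of 3 numbered replicate libraries. Control libraries carried the genotype label wild type and knockout libraries the label Qk-/-, and no treatment was named for either group. The promoter or recombinase behind the deletion, the removed exons and the cells in which Qk was lost were not stated, nor whether each library held 1 animal or several. Polyadenylated RNA was sequenced on an Ion Proton, and each gene has 1 TPM value per library. TPM is a transcript abundance scaled by gene length and to the same total in every library, so levels can be compared between genes.

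A dividing cell passes from G1 into S phase, where DNA is copied, and through G2 into mitosis. In G1, D-type cyclins with CDK4 or CDK6 and E-type cyclins with CDK2 release E2F transcription factors from the retinoblastoma proteins, and E2F sites drive the genes of replication. Genes of G2 and mitosis are switched on later, largely through the element called CHR (cell cycle genes homology region) and CCAAT boxes bound by NF-Y. At the end of the first postnatal week most cortical neurons have left the cell cycle, and the cells that still divide in the cortex are chiefly glia and their precursors. The transcripts measured here are from whole tissue, in which fewer cells of a type and less RNA per cell cannot be told apart.

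The promoters of these genes show the division by phase in their letters. RefSeq promoter windows of GRCm38.p6, from 250 bases before to 50 bases after a start site, were matched for 39 of the 48 genes, with 43 windows in all. An E2F-type site was taken as TTTCCCGC, TTTCGCGC, TTTGCCGC or TTTGGCGC, a CHR as TTTGAA and a CCAAT box as CCAAT, each on both strands, with overlapping matches counted. An E2F-type site lay in at least 1 window of 7 of 12 replication genes and of 1 of 19 mitosis genes, Cdk1, against 4.44% of 11188 tested genes with a window and 2.6% of all 27025 genes in the RefSeq table. A CHR lay in 14 of 19 mitosis genes and in 1 of 12 replication genes, Mcm2, against 13.85% of tested genes and 20.2% of all genes. A CCAAT box was common to both phases, in 17 of 19 mitosis and 9 of 12 replication genes, against 42.65% of tested genes. A CHR and a CCAAT box lay in the same window in 14 of 19 mitosis genes, which are all those with a CHR. The pair was found in 6.95% of all RefSeq windows, which are not limited to tested genes. A match describes these letters only and is not a measured site. The 4 windows below belong to the genes with the smallest p-values in their role among those whose window held the motif, and show both kinds of promoter in the direction of transcription. Capitals mark E2F-type sites in Mcm3 and Uhrf1 and CHR elements in Hmgb2 and Ube2c.
Mcm3, minus strand, chr1:20820263-20820562: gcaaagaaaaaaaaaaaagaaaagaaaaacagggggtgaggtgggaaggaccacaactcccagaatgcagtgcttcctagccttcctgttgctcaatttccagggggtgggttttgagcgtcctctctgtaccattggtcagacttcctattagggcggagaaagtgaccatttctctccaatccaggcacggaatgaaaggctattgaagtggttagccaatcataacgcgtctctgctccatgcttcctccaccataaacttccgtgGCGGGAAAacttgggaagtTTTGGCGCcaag
Uhrf1, plus strand, chr17:56304063-56304362: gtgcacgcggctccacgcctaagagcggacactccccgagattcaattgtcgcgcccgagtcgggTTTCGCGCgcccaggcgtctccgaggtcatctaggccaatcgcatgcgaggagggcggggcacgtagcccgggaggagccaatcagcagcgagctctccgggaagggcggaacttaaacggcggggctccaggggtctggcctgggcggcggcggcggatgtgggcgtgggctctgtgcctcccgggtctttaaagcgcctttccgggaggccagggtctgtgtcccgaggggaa
Hmgb2, plus strand, chr8:57511593-57511892: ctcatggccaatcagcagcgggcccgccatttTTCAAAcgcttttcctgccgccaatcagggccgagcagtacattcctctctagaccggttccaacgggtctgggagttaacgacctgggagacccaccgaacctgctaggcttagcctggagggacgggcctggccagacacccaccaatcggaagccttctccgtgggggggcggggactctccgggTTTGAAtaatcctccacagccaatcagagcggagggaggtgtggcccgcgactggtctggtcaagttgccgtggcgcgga
Ube2c, plus strand, chr2:164769679-164769978: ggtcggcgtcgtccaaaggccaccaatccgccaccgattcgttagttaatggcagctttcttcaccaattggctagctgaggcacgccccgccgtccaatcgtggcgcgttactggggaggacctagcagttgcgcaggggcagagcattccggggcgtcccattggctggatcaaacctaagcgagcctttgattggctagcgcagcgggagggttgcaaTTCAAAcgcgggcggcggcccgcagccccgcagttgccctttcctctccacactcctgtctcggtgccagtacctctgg
The pair of E2F-type sites of Mcm3 began at positions 19 and 38 after its start site, and the single site of Uhrf1 at position -185. The CHR elements of Hmgb2 began at positions -218 and -30, and that of Ube2c at position -29.

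Values by library are in the order of replicates 1, 2 and 3. Qk itself was at 36.5, 43.2 and 41.3 TPM in control and 14.6, 15.2 and 15.4 TPM in knockout replicates, and fell to 0.373 times the control mean (log2 change -1.36, SE 0.0945, limma, adjusted p = 0.000855). The libraries were alike in the number of genes detected, with 18971 to 19710 genes above 0 TPM. Markers of cortical projection neurons were present in all 6 libraries, with Slc17a7 at 484, 505 and 508 TPM in control and 529.5, 506 and 509 TPM in knockout and Tbr1 at 54.2, 50.9 and 51.3 and 49.5, 53.3 and 54.6 TPM. The number of reads behind a TPM value is unknown.

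No cell cycle gene passed the test of knockout against control, yet most of them stood slightly higher in the knockout. All 48 genes had a mean of at least 1 TPM and were tested with limma on log2(TPM + 1), with Benjamini-Hochberg adjustment over 14994 genes. At an adjusted p below 0.05, 0 of the 48 were called, against 58 of all tested genes (0.387%), and the adjusted p of the 48 ran from 0.074 to 0.987. At an unadjusted p below 0.05, 11 were higher and 0 lower in the knockout, against 3.42% and 5.3% of all tested genes. The 11 were Mcm3, Pcna, Tyms, Gins2 and Uhrf1 of replication, Ccna2, Aurkb, Ube2c and Hmgb2 of mitosis, Cdk2 and Cdkn1a. The 3 knockout values lay above all 3 control values in 18 of the 48 genes and below them in 0, shares to be read beside 5.2% and 8.98% of all tested genes. A positive log2 change was seen in 38 of the 48, against 43% of all genes, and the median log2 change was 0.19, against -0.03 over all genes. All log2 changes are knockout minus control after adding 1 to the TPM, which understates the differences of low genes. The genes of replication and of mitosis made up this difference, with 13 of 14 and 19 of 22 positive, while 5 of 9 G1 regulators and 1 of 3 inhibitors were positive. Genes of 1 pathway vary together, so these counts do not stand for that many separate observations.

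**Figure D1:**
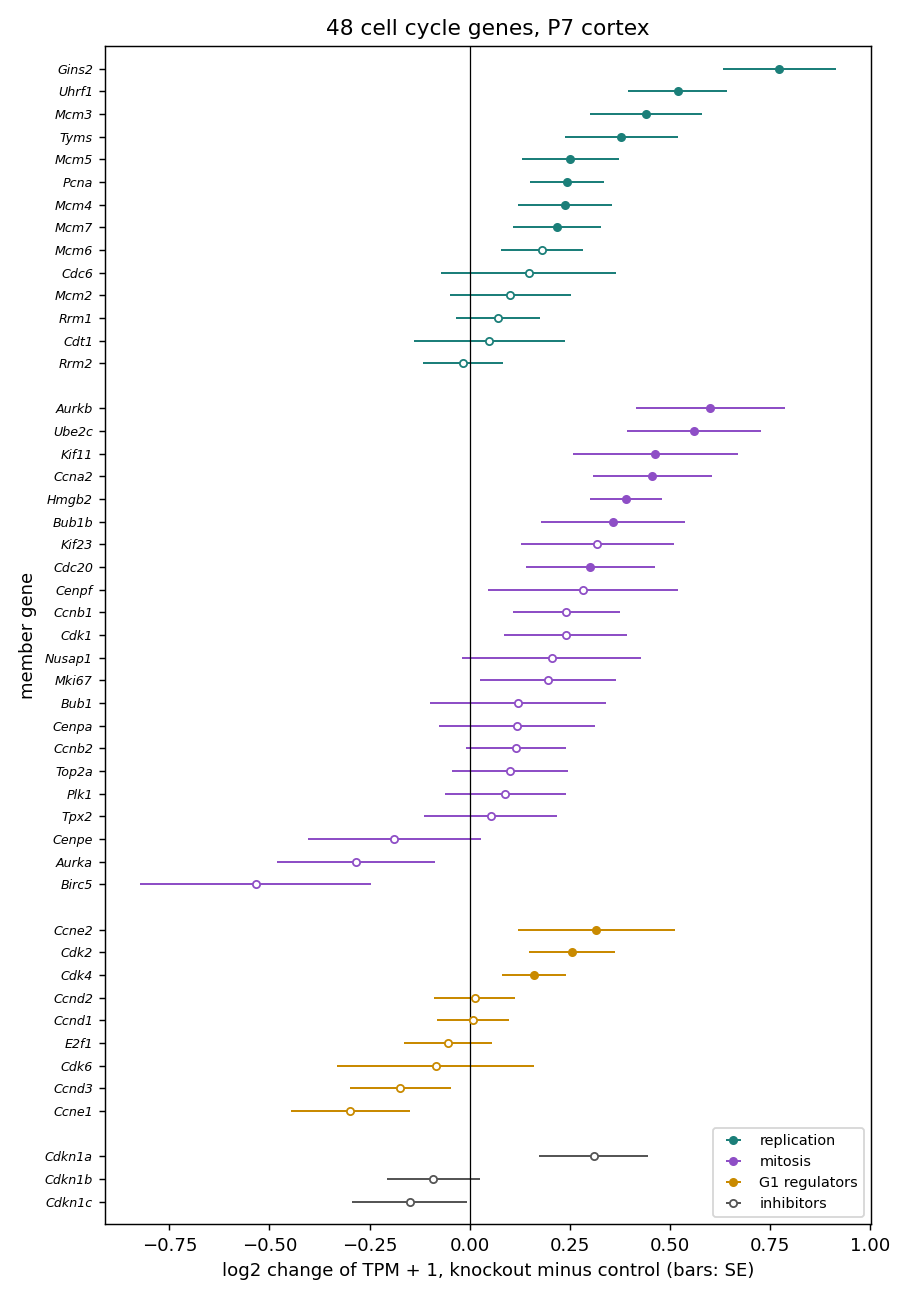
Log2 change of TPM + 1 (knockout minus control, x axis) of each of the 48 genes, grouped by role, with the standard error of the limma fit as bars. Filled points are the 18 genes whose 3 knockout values lie above all 3 control values. Replication and mitosis genes lie mostly to the right of 0, with medians of 0.23 and 0.22, and the G1 regulators lie on both sides.

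**Figure D2:**
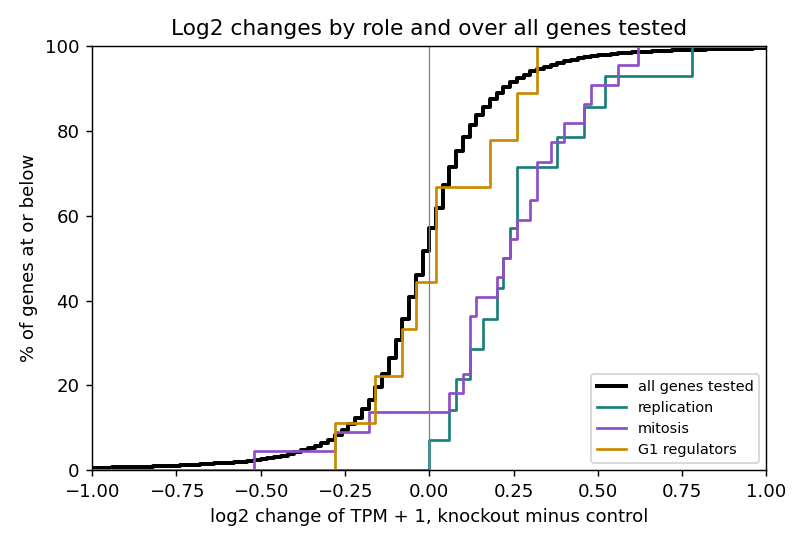
Share of genes (y axis, %) with a log2 change at or below the value on the x axis, for all 14994 genes tested and for 3 roles. The curves of replication and mitosis lie close together and to the right of the curve of all genes, and the curve of the 9 G1 regulators lies near it.

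Among the genes of replication, Gins2 stood out with the smallest p-value of all 48. Gins2, a subunit of the GINS complex that joins the replicative helicase, was at 4.89, 5.05 and 4.74 TPM in control and 10.6, 8.95 and 7.87 TPM in knockout. The lowest knockout value was above the highest control value by more than the whole range of the controls, and the knockout mean was 1.87 times the control mean. This difference did not pass over all genes (log2 change 0.77, SE 0.142, adjusted p = 0.074, limma). Leaving out 1 library at a time gave adjusted p-values of 0.109 to 0.254. Gins2 (Entrez 272551) is on chromosome 8, minus strand, from 120578633 to 120589304 in GRCm38, and its exons overlap those of Gse1 on the other strand, which was at 16.0 to 19.8 TPM over the 6 libraries. Whether counting used the strand was not stated, so reads of such a pair may have been shared, and 11 of the 48 genes overlap exons of a coding gene on the other strand.

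Uhrf1, which brings the maintenance DNA methyltransferase to newly copied DNA, was at 5.83, 6.48 and 5.73 TPM in control and 9.68, 8.96 and 8.51 TPM in knockout. The groups did not overlap, and the knockout mean was 1.505 times the control mean (log2 change 0.52, SE 0.124, adjusted p = 0.187, limma). Tyms, the thymidylate synthase that supplies a DNA building block, was at 3.87, 3.62 and 3.54 TPM in control and 5.15, 5.05 and 5.03 TPM in knockout. It was narrow in both groups, without overlap (log2 change 0.38, SE 0.141, adjusted p = 0.482, limma). Pcna, the sliding clamp that holds DNA polymerase on its template, was the most abundant of these genes, at 103, 101 and 93.2 TPM in control and 129.8, 105 and 119 TPM in knockout. Its lowest knockout value, in replicate 2, was just above the highest control value (log2 change 0.24, SE 0.0918, adjusted p = 0.487, limma).

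The Mcm2 to Mcm7 genes encode the ring of 6 subunits that is loaded on replication origins and unwinds DNA in S phase. All 6 had a positive log2 change, from 0.10 for Mcm2 to 0.44 for Mcm3, and 4 of them had no overlap between groups. The sign of Mcm2 was not stable, with a log2 change of -0.056 without control replicate 2. Mcm3 was at 11.7, 8.10 and 10.5 TPM in control and 14.3, 13.7 and 13.7 TPM in knockout (log2 change 0.44, SE 0.139, adjusted p = 0.37, limma). Control replicate 2 was the lowest of its controls, and without that library the log2 change of Mcm3 was 0.30. Mcm4 was at 11.2 ± 0.993 in control and 13.4 ± 1.198 TPM in knockout (SD, n = 3). Mcm5 was at 11.4 ± 0.955 in control and 13.8 ± 1.53 TPM in knockout (SD, n = 3), and Mcm7 at 25.4 ± 2.53 in control and 29.7 ± 3.11 TPM in knockout (SD, n = 3). These 3 genes also had knockout values above all controls, for Mcm5 and Mcm7 by a narrow margin. The exons of Mcm7 overlap those of Cops6 on the other strand, an abundant gene at 268 to 306 TPM. Mcm2 was at 10.3, 7.43 and 11.1 TPM in control and 10.1, 10.3 and 10.3 TPM in knockout, and Mcm6 at 26.5, 23.3 and 21.8 and 28.8, 25.1 and 27.6 TPM, so that the groups of both overlapped.

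The loading factors and the enzymes of nucleotide reduction showed little difference. Cdc6 and Cdt1 load the Mcm ring on origins in G1. Cdc6 was at 1.98 ± 0.57 in control and 2.26 ± 0.309 TPM in knockout (SD, n = 3), and Cdt1 at 6.16 ± 0.569 in control and 6.54 ± 1.75 TPM in knockout (SD, n = 3), and both overlapped between groups. The subunits of ribonucleotide reductase, Rrm1 and Rrm2, make the deoxyribonucleotides for S phase. Rrm1 was at 13.6 ± 0.814 in control and 14.3 ± 0.915 TPM in knockout (SD, n = 3). Rrm2 was at 30.5, 24.8 and 29.2 TPM in control and 27.4, 29.2 and 26.7 TPM in knockout and was the 1 replication gene with a negative log2 change (log2 change -0.02, SE 0.101, adjusted p = 0.977, limma), a sign that was positive after median-of-ratios, TMM or quantile scaling.

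**Figure D3:**
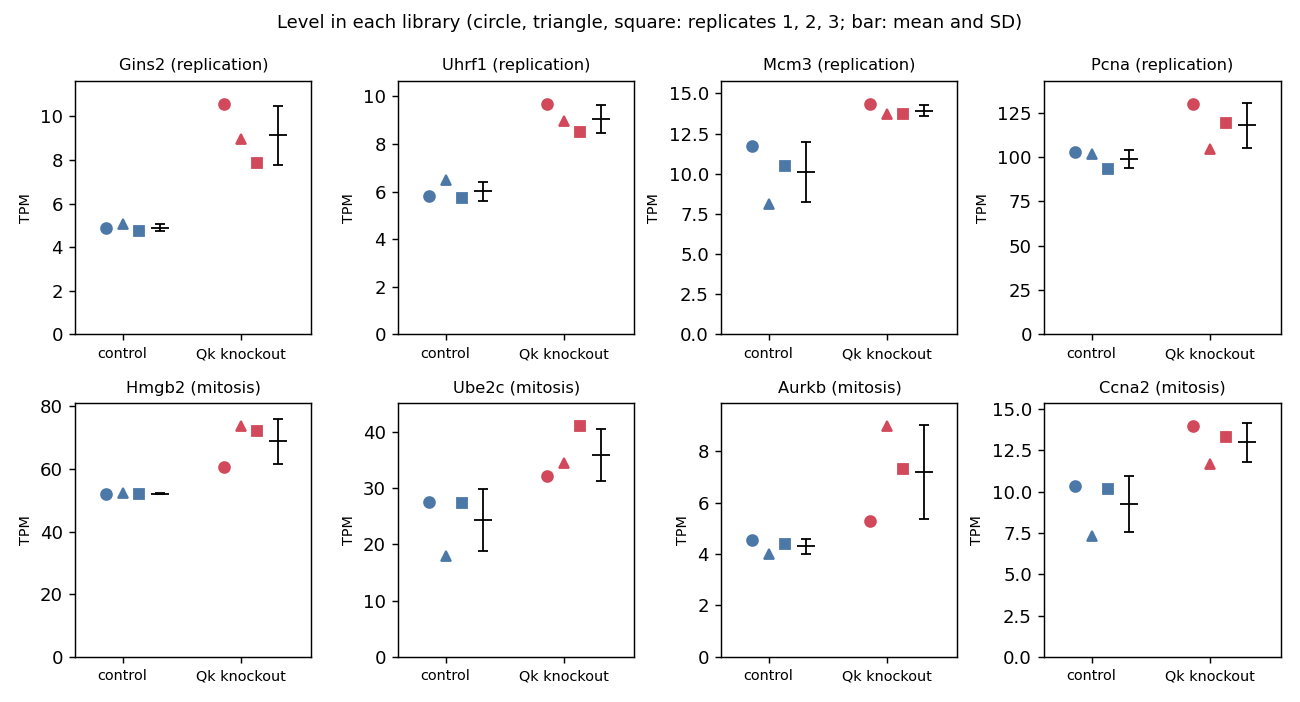
TPM (y axis, from 0) of 8 replication and mitosis genes in the 3 control and 3 knockout libraries, with the group mean and SD beside the points. In all 8 genes the 3 knockout values lie above the 3 control values, and for Pcna the nearest values of the groups almost meet.

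Genes of G2 and mitosis had a median log2 change of 0.22, with 7 of the 22 genes free of overlap and all 7 higher in the knockout. Hmgb2, a chromatin protein abundant in dividing cells, was the most abundant of them and had the smallest p-value. Hmgb2 was at 51.96, 52.2 and 51.95 TPM in control and 60.6, 73.5 and 72.1 TPM in knockout. The controls were nearly equal, with an SD of 0.119 TPM, against 7.08 TPM in the knockout libraries (log2 change 0.39, SE 0.0893, adjusted p = 0.169, limma). Without a library at a time its adjusted p was 0.102 to 0.433. Hmgb2 (Entrez 97165) is on chromosome 8, plus strand, from 57511907 to 57515999 in GRCm38.

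Ube2c, the ubiquitin-conjugating enzyme of the anaphase-promoting complex, was at 27.6, 18 and 27.4 TPM in control and 32.1, 34.5 and 40.97 TPM in knockout. The knockout mean was 1.47 times the control mean, and control replicate 2 was well below the other two controls (log2 change 0.56, SE 0.167, adjusted p = 0.331, limma). Without that control the log2 change of Ube2c was 0.37. Aurkb, the kinase of the chromosomal passenger complex, was at 4.56, 3.99 and 4.39 TPM in control and 5.29, 8.97 and 7.32 TPM in knockout. Knockout replicate 1 was close to the controls and replicate 2 far above them (log2 change 0.60, SE 0.185, adjusted p = 0.359, limma). Ccna2, the cyclin A of S phase and G2, was at 10.3, 7.32 and 10.2 TPM in control and 13.95, 11.7 and 13.3 TPM in knockout (log2 change 0.46, SE 0.149, adjusted p = 0.397, limma). Its knockout values were all higher, by 1.34 TPM at the nearest pair. The exons of Ccna2 overlap those of Exosc9 on the other strand, which was at 24.7 to 33.4 TPM.

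Kif11, the motor that pushes the spindle poles apart, was at 2.15, 2.36 and 3.86 TPM in control and 3.97, 3.89 and 4.55 TPM in knockout (log2 change 0.46, SE 0.205, adjusted p = 0.576, limma). Its highest control value nearly reached the lowest knockout value. Bub1b, a checkpoint protein at kinetochores, was at 4.19 ± 0.968 in control and 5.57 ± 0.505 TPM in knockout (SD, n = 3), and Cdc20, the activator of the anaphase-promoting complex, at 6.96 ± 1.34 in control and 8.73 ± 0.95 TPM in knockout (SD, n = 3), and neither gene had overlap between groups. Without control replicate 3 the log2 change was 0.19 for Bub1b, from 0.36, and 0.15 for Cdc20, from 0.30. Overlap was present in Kif23, a motor of cytokinesis (log2 change 0.32), Cenpf, a kinetochore protein (0.28), Nusap1, a spindle protein (0.20), Bub1, a checkpoint kinase (0.12), and Cenpa, the centromeric histone (0.12). Bub1, Cenpe and Cenpf had means of 1.40 to 1.54 TPM, the lowest of the role.

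Widely used proliferation markers are among the other mitosis genes. Mki67, which encodes the Ki-67 antigen, was at 3.92, 3.07 and 4.25 TPM in control and 3.92, 4.42 and 4.93 TPM in knockout, and the groups overlapped (log2 change 0.20, SE 0.17, adjusted p = 0.803, limma). Top2a, the topoisomerase that untangles sister chromatids, was at 6.55, 8.21 and 7.34 TPM in control and 6.77, 8.41 and 8.78 TPM in knockout, also with overlap. Cdk1, the kinase that starts mitosis, was at 7.43, 8.18 and 8.29 TPM in control and 9.80, 7.70 and 11.6 TPM in knockout. Its knockout values were spread more widely than those of the controls, and knockout replicate 2 lay within the control range. The B cyclins that pair with Cdk1 were at 7.40 ± 0.447 in control and 8.97 ± 1.13 TPM in knockout (SD, n = 3) for Ccnb1 and at 7.84 ± 0.385 in control and 8.59 ± 0.877 TPM in knockout (SD, n = 3) for Ccnb2. Plk1, a kinase of mitotic entry, had a log2 change of 0.09, and Tpx2, the spindle factor that activates Aurora A, of 0.05.

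In 3 mitosis genes the knockout mean was lower. Birc5, which encodes survivin, was at 6.46, 9.19 and 7.25 TPM in control and 3.55, 3.64 and 8.77 TPM in knockout. Knockout replicates 1 and 2 were below all controls, and replicate 3 was within their range (log2 change -0.53, SE 0.288, adjusted p = 0.656, limma). Without knockout replicate 3 its log2 change was -0.90. Aurka, the Aurora kinase of the spindle poles, was at 6.34, 5.68 and 5.32 TPM in control and 6.18, 3.36 and 4.49 TPM in knockout. Cenpe, a kinetochore motor, was at 1.71 ± 0.381 in control and 1.37 ± 0.156 TPM in knockout (SD, n = 3). Birc5 and Aurkb encode parts of the same passenger complex, and Aurkb values were all higher in the knockout while 2 of the 3 Birc5 values were lower than every control.

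Replication and mitosis genes were close in their median shift and less so in their mean shift. The median log2 change was 0.23 for replication and 0.22 for mitosis, a difference of -0.0054, against a spread of 0.0793 (pooled SD over libraries of the difference of medians). The mean log2 change was 0.26 for replication and 0.19 for mitosis, a difference of -0.066. The extreme genes, Gins2 at 0.77 in replication and Birc5 at -0.53 in mitosis, weigh on these means. The mean log2(TPM + 1) level of the 14 replication genes was 3.70, 3.58 and 3.61 in control replicates and 3.95, 3.89 and 3.82 in knockout replicates. That of the 22 mitosis genes was 2.75, 2.69 and 2.71 in control replicates and 2.85, 2.90 and 2.97 in knockout replicates. Both roles were thus higher in every knockout library than in every control library. Among the 3 knockout libraries the order of the levels was reversed between the roles, and among the 3 controls it was the same. These orders of 3 libraries were noticed after the values were seen and were not tested. Within the 3 knockout libraries, replicate 1 had the highest level of replication genes and the lowest of mitosis genes. In it 9 of 14 replication genes had their highest value of all 6 libraries. Knockout replicate 3 had the lowest level of replication genes and the highest of mitosis genes of the 3. In it 9 of 22 mitosis genes had their highest value of all 6 libraries. The summed TPM of mitosis genes over that of replication genes was 0.686, 0.694 and 0.723 in control and 0.654, 0.779 and 0.805 in knockout replicates, so the ratio overlapped between groups (0.701 ± 0.0193 and 0.746 ± 0.0808, SD, n = 3). No p is given for these sums, since the genes were grouped by known role with earlier results of the data in view.

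**Figure D4:**
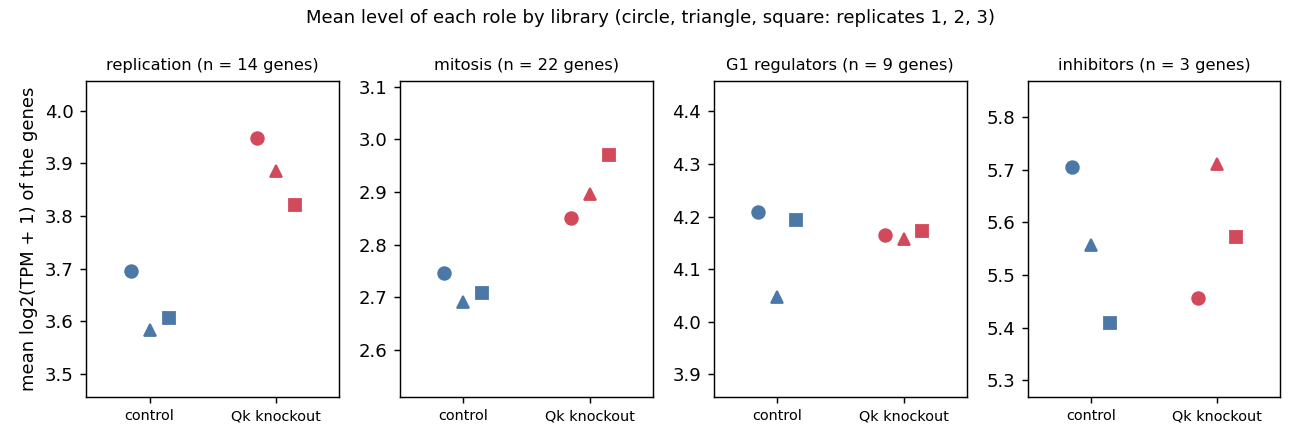
Mean log2(TPM + 1) of the genes of each role (y axis, a span of 0.6 in each panel, not from 0) in each library. The knockout libraries lie above the controls for replication (3.82 to 3.95 against 3.58 to 3.70) and mitosis (2.85 to 2.97 against 2.69 to 2.75), and the groups overlap for G1 regulators and inhibitors.

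**Figure D5:**
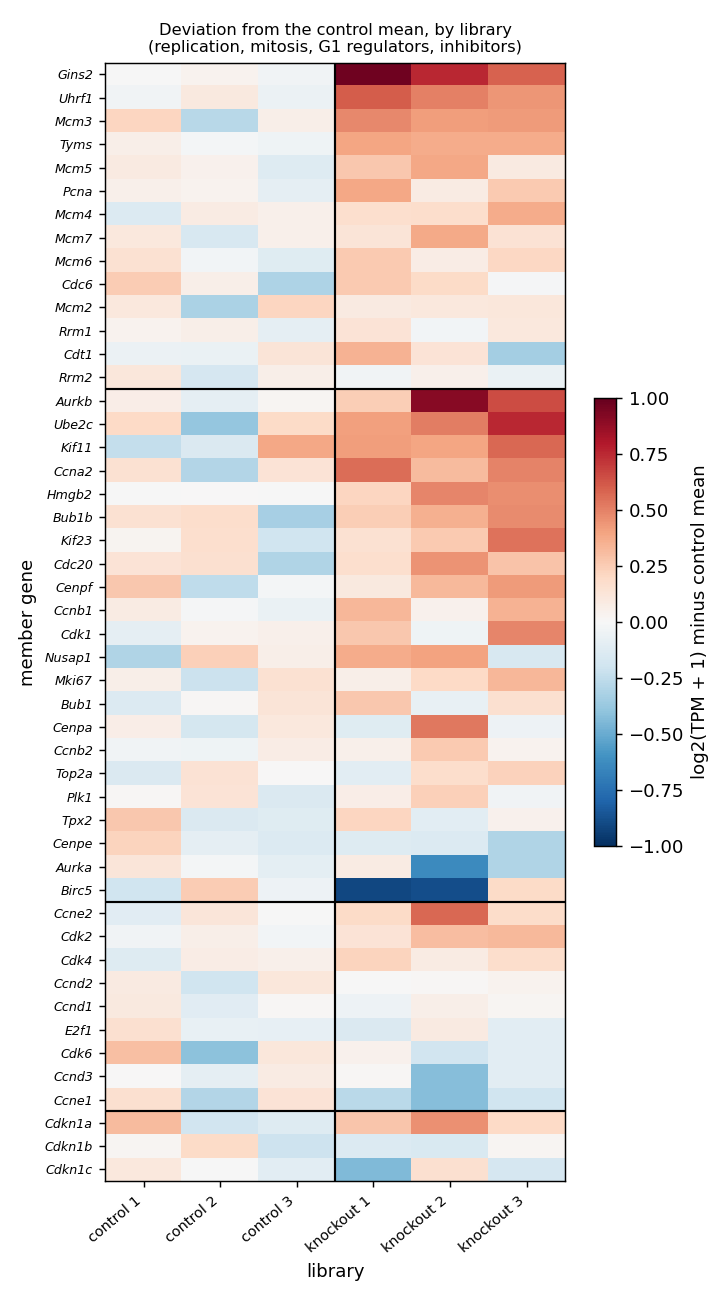
Deviation of each gene's log2(TPM + 1) from its control mean (colour) in each library (columns), with genes as rows by role and by log2 change. The knockout columns are mostly red in the upper part of the replication and mitosis blocks, and Birc5 is deep blue in knockout 1 and 2 and pale red in knockout 3.

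The G1 regulators showed no common direction, with a median log2 change of 0.0080. Cdk4, the kinase partner of D cyclins, was the most abundant of all 48 genes, at 229, 265 and 261 TPM in control and 294, 266 and 283 TPM in knockout. Its groups were separated by less than 1 TPM at the nearest pair (log2 change 0.16, SE 0.0798, adjusted p = 0.627, limma). Without control replicate 1 the log2 change of Cdk4 was 0.094. Cdk2, the partner of cyclins E and A, was at 11.2, 12.04 and 11.3 TPM in control and 12.7, 14.5 and 14.7 TPM in knockout, without overlap (log2 change 0.26, SE 0.107, adjusted p = 0.55, limma). The exons of Cdk4 overlap those of Tspan31 on the other strand, which was at 57.7 to 72.3 TPM. Those of Cdk2 overlap Pmel, at 0.91 to 1.33 TPM.

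The E cyclins stood on opposite sides. Ccne1 was at 13.7, 9.77 and 13.5 TPM in control and 9.96, 8.84 and 10.5 TPM in knockout (log2 change -0.30, SE 0.148, adjusted p = 0.625, limma). The lowest control value lay among the knockout values, so the groups overlapped. Ccne2 was at 1.93, 2.46 and 2.16 TPM in control and 2.63, 3.73 and 2.60 TPM in knockout (log2 change 0.32, SE 0.195, adjusted p = 0.714, limma), without overlap but at a low level. Without knockout replicate 2 the log2 change of Ccne2 was 0.19. The D cyclins, which link growth signals to the cycle, overlapped between groups. Ccnd1 was at 28.2 ± 2.14 in control and 28.3 ± 1.12 TPM in knockout (SD, n = 3), and Ccnd2 at 33.2, 27.1 and 33.7 TPM in control and 31.1, 31.4 and 31.9 TPM in knockout (log2 change 0.01, SE 0.101, adjusted p = 0.982, limma). Without control replicate 2 the log2 change of Ccnd2 turned from 0.012 to -0.085. Ccnd3 was at 21.6, 20.2 and 22.9 TPM in control and 21.8, 15.8 and 19.97 TPM in knockout, with the lowest value in knockout replicate 2 (log2 change -0.17, SE 0.127, adjusted p = 0.76, limma). Its log2 change was -0.046 without that library and -0.27 without knockout replicate 1. E2f1, an activator of S phase genes, was at 22.3 ± 2.26 in control and 21.4 ± 1.98 TPM in knockout (SD, n = 3), and Cdk6, the other partner of D cyclins, at 1.74 ± 0.655 in control and 1.54 ± 0.214 TPM in knockout (SD, n = 3).

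Of the inhibitors, Cdkn1a (p21, a target of p53) was at 111, 77.5 and 80.7 TPM in control and 107, 122 and 101 TPM in knockout. Control replicate 1 lay within the knockout range and the other two controls below it (log2 change 0.31, SE 0.136, adjusted p = 0.572, limma). Leaving out 1 library at a time moved its log2 change from 0.22 (without control replicate 2) to 0.47 (without control replicate 1), with adjusted p-values of 0.149 to 0.818. Cdkn1b (p27), which holds differentiating cells in G1, was at 31.7, 35.9 and 26.96 TPM in control and 28.4, 28.1 and 31.7 TPM in knockout, with overlap (log2 change -0.09, SE 0.115, adjusted p = 0.884, limma). Cdkn1c (p57) was at 37.8, 34.9 and 32.6 TPM in control and 25.5, 39.2 and 31.1 TPM in knockout, where replicate 2 was above and replicates 1 and 3 were below every control (log2 change -0.15, SE 0.144, adjusted p = 0.834, limma). Its log2 change was -0.0048 without knockout replicate 1 and -0.30 without knockout replicate 2.

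Quaking binds RNA at a short core, with a second half-site nearby, and p27 mRNA is a known target in glial cells. The core was searched as ACTAAC or ACTAAT on the sense strand of the longest annotated 3' UTR of each gene (GENCODE M21), and a half-site as TAAC or TAAT at a distance of 1 to 20 bases. A core was found in 10 of the 48 cell cycle genes (20.8%) and in 34.6% of 13459 tested genes. A core with a half-site was found in 5 (10.4%) and in 14.2%. The 3' UTRs of the cell cycle genes had a median length of 1006 bases, against 1199, and held 0.225 cores per kilobase, against 0.342. The genes with a core and a half-site were Cdkn1b, Ccne2, Ccnb1, Hmgb2 and Tyms. The sites of p27 and of Hmgb2, whose 3 cores all have a half-site, are shown with the core in capitals. They are matches of letters, and binding was not measured.
Cdkn1b, chr6:134922866-134922895, with half-site: aagttcagaagtACTAATgctcccacagaa
Cdkn1b, chr6:134925258-134925287, without half-site: actgaaaattatACTAACttatttatgtta
Hmgb2, chr8:57514564-57514593, with half-site: tgttaaccatttACTAATttgcttctctga
Hmgb2, chr8:57515185-57515214, with half-site: tttttcaaaactACTAACaaatcaagaatg
Hmgb2, chr8:57515863-57515892, with half-site: tatatagtctacACTAACcatactagcagt
The log2 changes of these 5 genes were -0.09 for Cdkn1b, 0.32 for Ccne2, 0.24 for Ccnb1, 0.39 for Hmgb2 and 0.38 for Tyms, none of them past the test.

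Other genes of the pathway showed the same absence of calls. Of 123 further cell cycle genes, 120 were tested (Orc1, Casc5 and Cdkn2a were below 1 TPM) and 0 passed. At an unadjusted p below 0.05, 5 were higher and 0 lower, against 3.42% and 5.3% of all tested genes. That count of higher genes was near the background. The 3 knockout values lay above all 3 control values in 15 of the 120 and below them in 4. Over all tested genes these shares were 5.2% and 8.98%. A positive log2 change was seen in 75 of the 120 (62.5%), against 43% of all tested genes. The 40 tested genes of spindle, kinetochore and cytokinesis were the ones nearest to the mitosis genes above, with 33 positive and a median of 0.14. Cks2, a small partner of Cdk1, was at 22.9, 16 and 17.8 TPM in control and 26.3, 33.8 and 26.3 TPM in knockout (log2 change 0.59, SE 0.15, adjusted p = 0.229, limma). Cdca3, a trigger of mitotic entry, was at 7.42 ± 2.13 in control and 10.6 ± 0.662 TPM in knockout (SD, n = 3; log2 change 0.49, SE 0.187, limma, adjusted p = 0.487). The 37 tested genes of origin licensing and replication had 22 positive and a median of 0.07, below the 0.23 of the 14 genes above. Rpa1, of the complex that coats single-stranded DNA, was at 29.7 ± 1.56 in control and 34.6 ± 0.70 TPM in knockout (SD, n = 3; log2 change 0.22, SE 0.0815, limma, adjusted p = 0.487). Pole, the leading-strand polymerase, was at 2.11 ± 0.155 in control and 3.09 ± 0.395 TPM in knockout (SD, n = 3; log2 change 0.39, SE 0.179, limma, adjusted p = 0.593).

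The 18 genes of E2F, RB and MuvB transcription had 7 positive and a median of -0.02. Lin52, a MuvB subunit, was at 13.5 ± 2.57 in control and 10.9 ± 1.37 TPM in knockout (SD, n = 3; log2 change -0.27, SE 0.158, limma, adjusted p = 0.69). E2f3, an activator E2F, was at 12.5 ± 0.399 in control and 10.8 ± 0.962 TPM in knockout (SD, n = 3; log2 change -0.19, SE 0.111, limma, adjusted p = 0.698). The 13 genes of checkpoints and p53 had 7 positive and a median of 0.03. Mdm2, the ligase of p53, was at 20.2 ± 0.586 in control and 23.1 ± 1.35 TPM in knockout (SD, n = 3; log2 change 0.19, SE 0.0901, limma, adjusted p = 0.612). Cdc25a, a phosphatase that activates CDKs, was at 8.33 ± 1.16 in control and 6.91 ± 0.933 TPM in knockout (SD, n = 3; log2 change -0.24, SE 0.15, limma, adjusted p = 0.725). The 12 tested INK4 inhibitors and ubiquitin ligase genes had 6 positive and a median of -0.01. Fbxo5, an inhibitor of the anaphase-promoting complex, was at 3.68 ± 1.24 in control and 5.62 ± 0.783 TPM in knockout (SD, n = 3; log2 change 0.53, SE 0.209, limma, adjusted p = 0.516). Cdkn2d, an INK4 inhibitor, was at 112 ± 8.19 in control and 98.4 ± 8.85 TPM in knockout (SD, n = 3; log2 change -0.18, SE 0.0903, limma, adjusted p = 0.622).

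Levels of cell type markers, summed over each list, stood beside these values, and their part in them was not tested. The 8 microglia markers summed to 226 to 236 TPM in control and 252 to 259 TPM in knockout, without overlap. Of these, 5 of 8 were positive and 0 passed the test, and single markers did not all follow the sum. C1qb (mean 75.0 in control and 89.1 TPM in knockout) and Tyrobp (36.6 and 46.4 TPM) were higher without overlap. P2ry12 (12.1 and 9.29 TPM) was lower without overlap. The 8 oligodendrocyte precursor markers summed to 327 to 371 and 361 to 397 TPM, where Olig2 rose and Gpr17 fell and 2 of 8 were positive. Olig1 (mean 138 in control and 185 TPM in knockout) was also higher without overlap. Pdgfra (41.5 and 33.5 TPM) and C1ql1 (24.4 and 14.4 TPM) were lower without overlap. The 7 astrocyte markers summed to 812 to 865 and 612 to 663 TPM, without overlap. Among them 2 fell (Slc1a3 and Gja1) and 1 of 7 was positive. That 1, Aldh1l1 (mean 55.5 in control and 77.0 TPM in knockout), was higher without overlap. Slc1a3 (265 and 112 TPM), Gja1, Slc1a2, Gfap and Aldoc were lower without overlap, and Aqp4 overlapped. The 8 markers of intermediate progenitors and subventricular neuroblasts summed to 187 to 209 and 197 to 205 TPM, and Neurog1 was at 0 in all libraries. Endothelial markers, 7 in number, summed to 372 to 502 and 359 to 428 TPM, with overlap. Of those 7, 0 were positive (median log2 change -0.12), and Slco1a4 was lower without overlap. Of the defining markers of cerebellar granule cells, whose precursors divide in great number at this age, Gabra6 was listed at 0 in all libraries. Atoh1, Barhl1 and En2 did not exceed 0.31, 0.1 and 0.08 TPM. The rest of that list (Zic1, Zic2 and Neurod1) is expressed in forebrain as well, and the list summed to 62.4 to 74.3 TPM in control and 68.2 to 82.7 TPM in knockout. Choroid plexus markers (755 to 1545 and 678 to 1030.2 TPM) and red blood cell markers (6965 to 12560 and 4146 to 10818 TPM) overlapped between groups. Of the 6 choroid plexus and the 5 tested red blood cell markers, 0 were positive (median log2 change -0.36 and -0.47).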

How the data were processed

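The authors deposited 1 TPM value per gene for each of the 6 libraries. The submitters' processing notes name STAR 2.4.1d, RSEM 1.3.0, mm10 and GRCm38.p4. No source used here states the annotation, strand setting or trimming. RSEM divides reads shared by similar genes by estimate, so members with near-identical copies are less certain. TPM keeps no read number, so the depth is unknown and no counting interval was computed. A TPM total is fixed, so abundant genes move all others.

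Groups came from the sample titles. TPM was not scaled again. A gene entered the test at a mean TPM of 1 or more, and limma 3.58.1 in R 4.3.3 was run on log2(TPM + 1) (eBayes with trend, group as the only term), with two-sided p-values adjusted by Benjamini-Hochberg over 14994 genes and a threshold of 0.05. All adjusted p-values are from this fit unless stated. The labels number the libraries but do not tie each to its own animal, so p-values reflect only the variation among these libraries, which may be technical. The fit was tested on simulated data built from these 14994 genes. Of 100 genes given a log2 change of 0.5, 27% were called, and of 100 given a log2 change of 1, 69%. The changed genes were drawn at random from all tested genes. The median of mean TPM was 18.1 over all tested genes and 8.20 over the 48, so recovery among the 48 may differ.

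The members, their roles, the further gene lists and the markers were chosen with earlier results of these data known. Of each role, the text gives full statistics for the 5 genes with the smallest p (all 3 inhibitors) and the 2 most abundant, and of each further list the 2 with the smallest p. Other members were named freely. Alternatives were other pseudocounts, filters, scalings and variance settings, a replicate block, and leaving out each library. TMM and median-of-ratios factors were computed here from TPM. Positions are from GENCODE M21 (GRCm38). A marker gene of projection neurons is not reported here.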

Additional observations from a re-analysis of the deposited data

How the results depend on the processing

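In 16 other settings, 0 of the 48 genes and 0 of the further cell cycle genes passed the adjusted threshold, while the genes called over the whole table ranged from 27 to 59 without 1 library and were 28 with eBayes without trend and 37 without a filter, against 58. Qk kept its direction and call in all of them (log2 change -1.43 to -1.31). Without 1 library the median log2 change was 0.20 to 0.27 for replication, 0.20 to 0.23 for mitosis, -0.085 to 0.057 for G1 regulators and -0.20 to 0.0052 for inhibitors, and the mitosis minus replication difference was -0.06 to 0.03. The number of positive genes was 12 to 14, 18 to 19, 3 to 7 and 1 to 2 in these roles. The lowest values of the G1 regulators (median -0.085, 3 positive) and the 2 positive inhibitors came without control replicate 2. With a mean of at least 5 TPM, 14 mitosis genes were left, of which 12 were positive, since fewer genes were tested. The sign of Rrm2 turned under median-of-ratios (0.012), TMM (0.0094) and quantile scaling (0.013), which shift the median of all genes by under 0.03, and Rrm2 ranged from -0.10 to 0.042, Ccnd2 from -0.085 to 0.067 and Cdkn1b from -0.20 to 0.0052 without 1 library. The cause was not tested. Whether same-numbered libraries share more than a number was not stated. The deviations of the pairs correlated at 0.035, 0.0311 and 0.0134, each the highest for both libraries of the pair. With the replicate number as a block 38 genes were called over the whole table, 0 of the 48 passed, and Gins2 had an adjusted p of 0.159. Without 1 library, mitosis genes with all knockout values above all controls numbered 8 to 11, against 7, while the share of all tested genes was 8.7% to 10.9%, against 5.2%. Without knockout replicate 1 they were 11, and the share of all genes was 8.77%. Most log2 changes were under 0.5, smaller than any simulated, and at 0.5 itself 27% were recovered, so a miss does not show equal levels.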

Other observations

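The lowest value of a gene fell in a control library for 40 of the 48 cell cycle genes: 9 in control replicate 1, 16 in replicate 2 and 15 in replicate 3. Over all tested genes that share was 42.8%. The highest value fell in a knockout library for 35 of them, 12 in replicate 1, 12 in replicate 2 and 11 in replicate 3, against 46.1% of all tested genes. The SD of TPM was larger in knockout for 25 of the 48 and larger in control for 23, and larger in knockout for 51.8% of all tested genes. Knockout libraries stood apart from each other in some genes, chosen after their values were seen. Cdt1, which licenses origins, was at 8.10, 6.88 and 4.64 TPM in knockout replicates 1, 2 and 3 and at 5.82 to 6.82 TPM in control. Cenpa, the histone variant that marks centromeres, was at 8.99 TPM in knockout replicate 2 and at 5.13 to 6.48 TPM in the other libraries.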
